A study of Mus musculus with 32 samples.

Results

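The genes described here are 9 Serpina serine protease inhibitors measured in mouse liver: Serpina3k, Serpina3m, Serpina3n, Serpina4-ps1, Serpina6, Serpina7, Serpina10, Serpina11 and Serpina12. They were chosen from their levels on these same arrays, with earlier results of the study known, so their values are given as a description, without p-values. The array carries 13 probes for the 9 genes, among 34836 gene names in all. All 13 probes passed the filter on dim probes, which asks that some group has the probe well above background on each of its 4 arrays. Serpina4-ps1, Serpina6, Serpina10 and Serpina11 have 2 probes each and the other 5 genes have 1.

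The study compared livers of male C57/BL6 mice in 8 groups of 4 independent livers, 1 array per liver. Mice ate a standard diet or a methionine and choline deficient (MCD) diet for 3 weeks. One label field calls that diet methyl and choline deficient. With each diet, a further group received a dual agonist of the glucagon-like peptide 1 receptor (GLP1R) and the glucagon receptor (GCGR) at 4.4 mg/kg/day, given every 2 days for 2 weeks. On the MCD diet the agonist began once the first week of feeding had passed. The same 4 conditions were sampled in other mice killed 2 weeks after a 70% partial hepatectomy, with diet and treatment kept on before and after surgery. The labels do not say that the mice without hepatectomy had sham surgery, and they give no age. The MCD diet is a common model of fatty and inflamed liver in which animals also lose weight. In bulk liver RNA, fewer cells of a type and less RNA per cell cannot be told apart.

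Serpins inhibit proteases by a trap: the protease cleaves an exposed loop of the serpin, the loop inserts into the body of the protein, and the protease stays bound and distorted. Some members no longer inhibit anything and carry hormones instead. Hepatocytes make most serpins of the blood plasma, and in mice the A clade has expanded into clusters of close copies.

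All levels are log2 values of the background-subtracted probe signal relative to the 75th percentile of the array, so that 0 is the signal of a fairly bright probe. A difference of 1 is a doubling. Levels of different probes are not set against each other. SD is the spread over the 4 arrays of a group (n = 4). The SE of a difference comes from 1 limma fit over all 8 groups. With 4 livers a group, the number of arrays limits the precision of every value.

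Some facts of the series bear on all results. Between 43.1% and 69.2% of probes per array were well above background. The 6 hepatocyte markers Alb, Apoa1, Tf, Cps1, Ass1 and Cyp2e1 were well above background on every array, but their level was not the same in all groups. Their summed linear level was 4380 to 4760 on standard diet and 2400 to 3160 on MCD diet. With agonist it was 3190 to 4730 and 3120 to 4910. After hepatectomy it was 2080 to 4220 and 2960 to 3240, and with agonist 2770 to 4870 and 2210 to 2750. The part of this in the Serpina differences was not tested. Standard and MCD diet without hepatectomy share a slide, as do the 2 agonist groups without hepatectomy, the 2 standard diet groups after hepatectomy and the 2 MCD groups after hepatectomy. Diet with or without agonist before surgery, and agonist after surgery, are therefore compared within a slide, though in different rows. The agonist without hepatectomy, the diet after hepatectomy and the hepatectomy itself cannot be told apart from the slide. Mice killed after hepatectomy had also been on MCD diet or agonist for longer, so that duration cannot be told apart from hepatectomy. The slides without and after hepatectomy were also read on different scanners.

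The deposited files disagree on which arrays are which. The deposited table of processed values has 32 columns, and each matched 1 scanner array of the same replicate number best, with a rank correlation of 0.954 to 0.997. For 16 columns that array belonged to another group. MCD diet and standard diet with agonist were exchanged, both without and after hepatectomy, and these columns reached only 0.868 to 0.939 against the array of their own label. Groups here follow the labels of the scanner files, and every direction below rests on them. Under the column labels of the table, the contrast described below as diet would be largely the contrast of agonist.

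A pair of arrays also stands apart from its groups: replicate 1 of standard diet after hepatectomy and replicate 4 of standard diet with agonist after hepatectomy. Over 14 genes that are male-biased in mouse liver, such as Elovl3 and Cyp4a12a, their mean levels were 2.08 and 2.19. The other 6 standard diet arrays after hepatectomy lay between 5.26 and 6.58, and the 8 MCD arrays after hepatectomy between 1.88 and 2.55. The Y-linked Ddx3y and Eif2s3y were well above background on all 32 arrays. Results that rest on the 2 arrays are given with and without them. Because 1 fit shares its estimate of spread, the 2 arrays can also widen the SE of comparisons that do not include them. Some differences of Serpina3k, Serpina6, Serpina7, Serpina11 and Serpina12 reached an adjusted p under 0.05 in limma only without the 2 arrays.

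The probe sequences show what the signals report. The Serpina4-ps1 probes are shown because the largest differences rest on them and because they are not independent: they share 52 bases, offset along one transcript, and differ at 1 of them, the base in capitals (G11A, with the base of A_55_P2004606 first and counted from its 5′ end).
A_55_P1997003: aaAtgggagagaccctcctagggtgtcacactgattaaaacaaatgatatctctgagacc
A_55_P2004606: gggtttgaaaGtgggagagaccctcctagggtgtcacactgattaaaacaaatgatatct

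The Serpina11 probes also overlap. They share 57 bases and differ at 4 of them (T13C, T25C, T27C and T31G, with the base of A_55_P2014284 first and counted from its 5′ end), so they read nearly the same stretch of one gene. The 25 bases that hold the differences, in capitals, are bases 7 to 31 of A_55_P2010191 and bases 10 to 34 of A_55_P2014284.
A_55_P2010191: gcaCggcaggaccccCgCgctGcag
A_55_P2014284: gcaTggcaggaccccTgTgctTcag

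By contrast, the Serpina6 and Serpina10 pairs lie apart in their genes. One probe of each is shown in full.
Serpina6 A_55_P2178036: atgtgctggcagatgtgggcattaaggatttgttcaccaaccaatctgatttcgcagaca
Serpina10 A_55_P2010196: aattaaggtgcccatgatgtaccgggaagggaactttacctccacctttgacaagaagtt

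The longest run shared by probes of different members was 9 bases, so no probe here contains a long stretch of another. On the mm9 build the files place the Serpina4-ps1 probes at chr12:105325068-105325127 (A_55_P1997003) and chr12:105325060-105325119 (A_55_P2004606), on the plus strand. Serpina11 lies at chr12:105218462-105218521 and chr12:105218465-105218524 and Serpina12 at chr12:105267099-105267158, all on the minus strand. Serpina10 lies at chr12:104864964-104865023 (A_55_P2010196) and chr12:104854887-104854946 (A_55_P2010197), and Serpina6 at chr12:104884880-104884939 (A_51_P133562) and chr12:104886817-104886876 (A_55_P2178036), on the minus strand. Serpina3k lies at chr12:105583645-105583704, Serpina3m at chr12:105632110-105632169 and Serpina3n at chr12:105651918-105651977, on the plus strand. Serpina7 alone lies on another chromosome, at chrX:135615848-135616502 on the minus strand, a span of 655 bases for a probe of 60. The exon or UTR that each probe falls in was not determined.

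Promoter windows from RefSeq (GRCm38.p6, 250 bases before to 50 after the start) were at hand for 4 of the 9 genes, Serpina3n, Serpina7, Serpina11 and Serpina12, in 6 windows. The 250 bases before the start are shown for Serpina11 and Serpina12, which lie near each other and whose levels correlated over the arrays. Capitals mark matches to the searched motifs.
Serpina11, chr12:103989958-103990207, minus strand: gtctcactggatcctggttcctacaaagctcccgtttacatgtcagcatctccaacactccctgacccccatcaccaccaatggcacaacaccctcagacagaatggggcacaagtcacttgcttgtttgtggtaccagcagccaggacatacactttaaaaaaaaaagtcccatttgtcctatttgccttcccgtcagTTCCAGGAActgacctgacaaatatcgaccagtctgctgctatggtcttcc
Serpina12, chr12:104044444-104044693, minus strand: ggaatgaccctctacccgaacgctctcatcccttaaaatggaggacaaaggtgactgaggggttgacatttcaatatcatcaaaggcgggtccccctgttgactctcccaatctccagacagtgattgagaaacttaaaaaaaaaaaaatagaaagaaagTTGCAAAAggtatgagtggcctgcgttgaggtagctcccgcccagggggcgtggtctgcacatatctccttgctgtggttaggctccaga

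Both strands were searched for a STAT motif (TTCNNNGAA), an HNF1 core motif (GTTAAT), an HNF4 motif (CAAAGTCCA) and a CEBP motif (TTGCNNAA). The Serpina11 window held the STAT motif at -51 to -43 from the start, and the Serpina12 window held the CEBP motif at -90 to -83. A Serpina7 window held the HNF1 core motif at -57 to -52 and the CEBP motif at -30 to -23. None of the 4 motifs matched in the Serpina3n window. Of 32851 promoter windows of the same length, 8.3% held the STAT motif, 7.1% the HNF1 core motif, 0.475% the HNF4 motif and 10.8% the CEBP motif. A match describes letters only.

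Serpina4-ps1 is a transcribed pseudogene named after Serpina4, the gene of kallistatin, and its RNA showed the widest range of the 9 genes. It was among the brighter probes on standard diet and near or below background on MCD diet. With A_55_P2004606, the standard diet arrays without hepatectomy read 7.71, 6.24, 8.20 and 8.19, and the MCD arrays -5.52, 0.68, -2.42 and -4.02. With agonist, the standard diet arrays read 3.24, 7.13, 6.37 and 8.15 and the MCD arrays -5.06, -2.36, -6.17 and 0.50. No standard diet array overlapped an MCD array in either pair. On the MCD side the probe was well above background on 3 of 4 arrays without agonist and 2 of 4 with it, so the low values carry little order among themselves. The difference, MCD minus standard, was -10.40 without agonist (SE 2.00, 95% interval -14.5 to -6.31) and -9.50 with agonist (-13.59 to -5.40). With another background correction, normexp, these were -8.46 and -7.32 (SE 1.48), so their size depends on the background correction.

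The second probe of Serpina4-ps1, A_55_P1997003, gave the same order of groups for diet. Its group means were 7.11 ± 1.32 (SD, n = 4) on standard diet and -2.69 ± 2.21 on MCD diet. With agonist they were 5.34 ± 1.92 and -3.70 ± 2.47. The differences were -9.80 and -9.05 (SE 1.80), and with normexp -8.17 and -6.45 (SE 1.4).

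After hepatectomy the standard diet arrays split. A_55_P2004606 read -3.01, 6.18, 6.24 and 5.15 on standard diet and 5.20, 5.62, 5.23 and -6.27 on standard diet with agonist. The MCD arrays read -2.76, -4.58, -3.49 and -3.30, and with agonist -3.66, -6.18, -4.72 and -4.34. The low standard diet arrays are the 2 that stand apart, and they lie among the MCD arrays, so the groups overlap. The diet difference was -7.17 both without and with agonist (SE 2.00), and without the 2 arrays it was -9.39 and -10.07 (SE 1.24). With A_55_P1997003 it moved from -6.65 to -8.83 and from -7.45 to -9.98.

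For hepatectomy, Serpina4-ps1 on standard diet differed by -3.95 with A_55_P2004606 (95% interval -8.04 to 0.15), and by -1.73 without the standing-apart array. With agonist the change was from -3.78 to -0.88. On MCD diet both times lay near background. The agonist differences were -1.36 on standard diet and -0.46 on MCD diet without hepatectomy, with 95% intervals of -5.46 to 2.73 and -4.55 to 3.64.

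**Figure D1:**
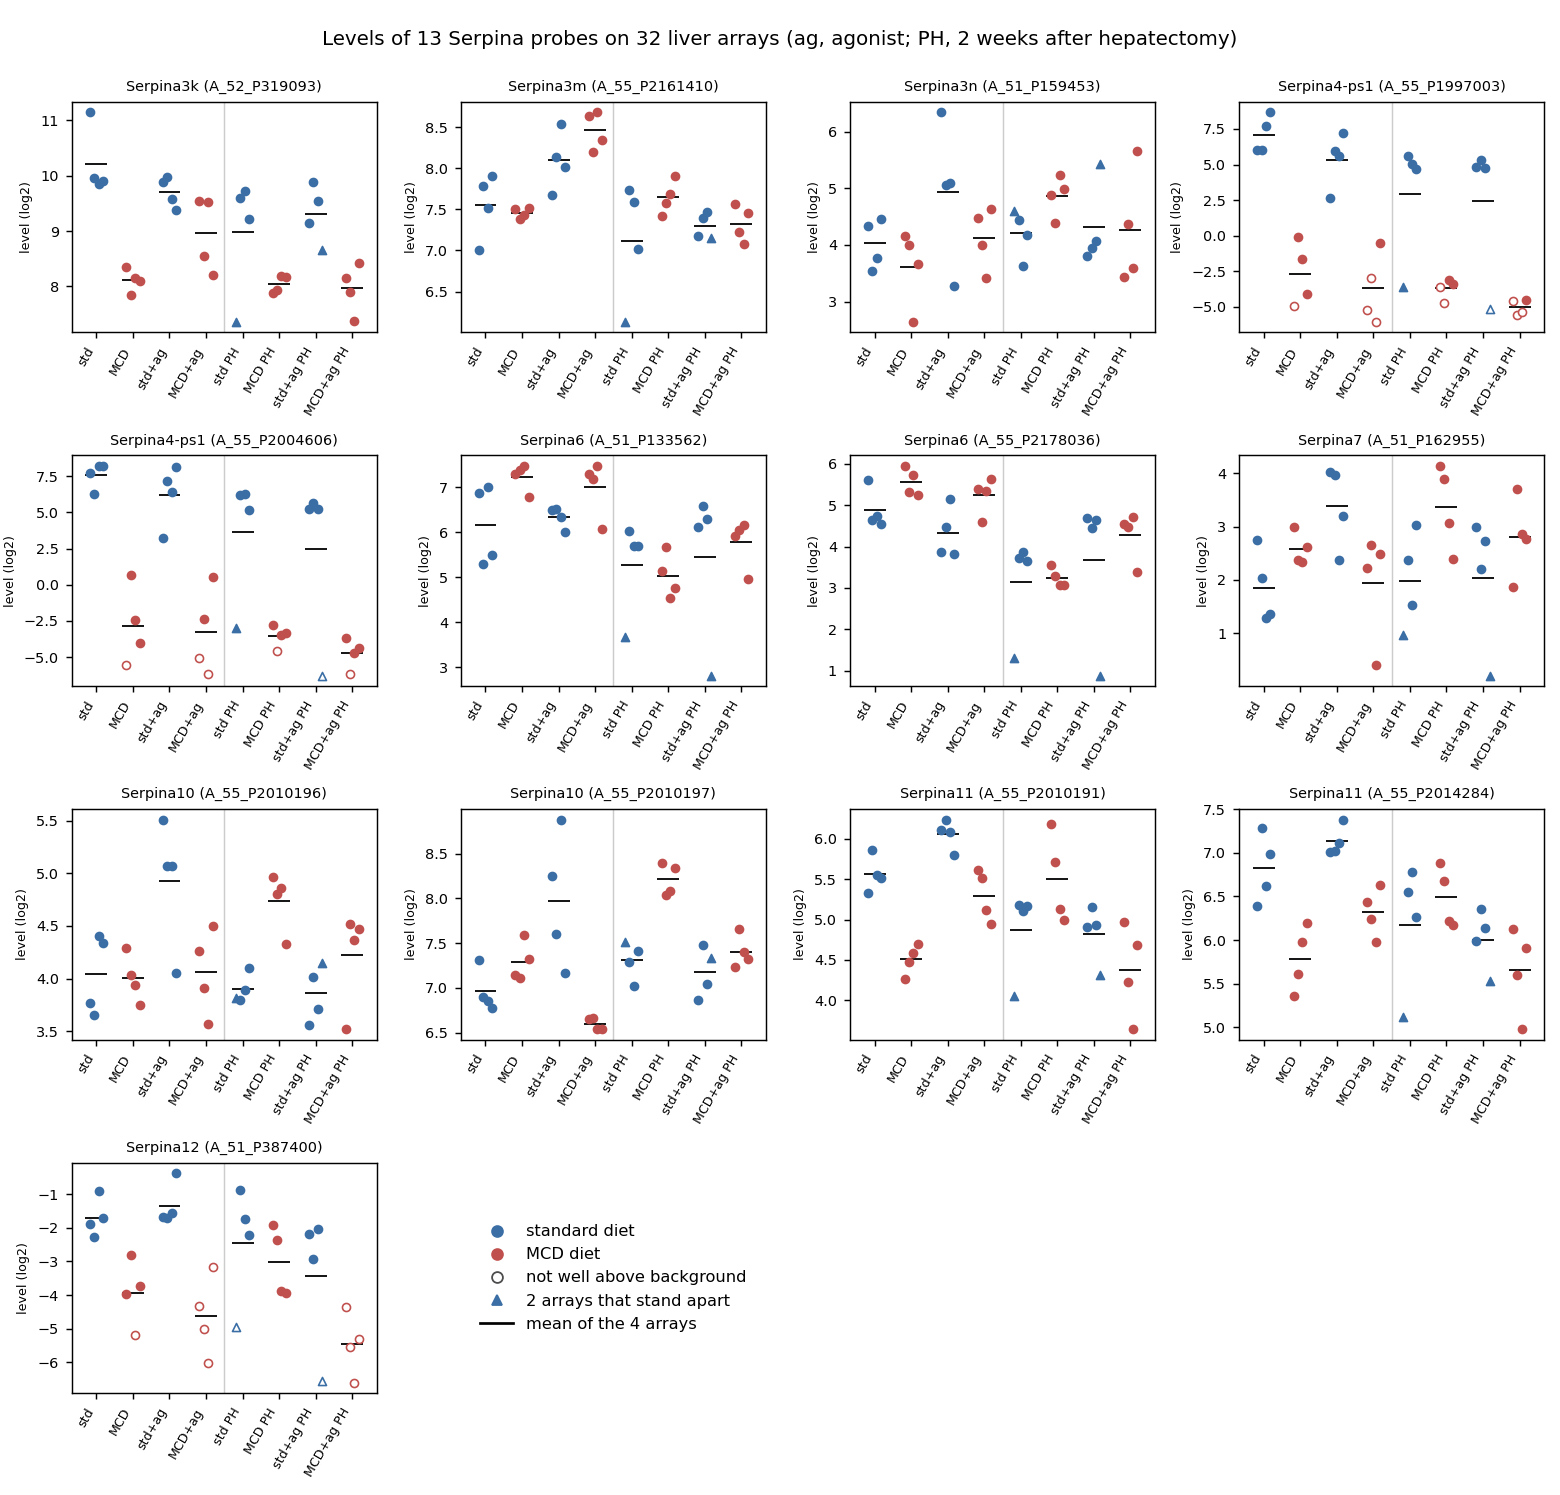
Levels of the 13 Serpina probes on every array, in log2 units relative to the array's 75th percentile (vertical axis), by group (horizontal axis). Serpina4-ps1 spans 12.30 log2 units between its highest and lowest group means with A_55_P2004606, and Serpina3k spans 2.25.

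The authors' deposited table also bears on this gene. Under its column labels, the diet difference of Serpina4-ps1 without hepatectomy and without agonist was -1.82 with A_55_P1997003 and -0.90 with A_55_P2004606. Of 21 member differences that passed and could be recomputed from that table, 15 kept their direction under its column labels and all 21 once columns were assigned to their best-matching arrays. Which labelling is right could not be settled from the files.

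The genes most like Serpina4-ps1 over the 32 arrays were Cyp4a12b, a fatty acid hydroxylase, Elovl3, a fatty acid elongase, and Keg1. Their correlations with A_55_P1997003 were 0.941, 0.934 and 0.933. These are descriptions over arrays that share groups, slides and the 2 standing-apart arrays. Without agonist and hepatectomy, Cyp4a12b fell by 5.27 on MCD diet (SE 0.86, limma adjusted p = 8.18e-05). Elovl3 fell by 6 (SE 1.34, limma adjusted p = 0.00182) and Keg1 by 3.68 (SE 0.71, limma adjusted p = 0.000478).

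Cyp4a12b and Elovl3 belong to a list of male-biased liver genes, of which 14 were tested. On MCD diet 11 of the 14 fell and none rose without agonist, with a median difference of -2.85 against -0.16 over all probes. With agonist 10 fell and none rose (median -2.80, all probes 0.03). After hepatectomy 9 fell without agonist (median -3.05) and 5 with agonist (median -2.45). In the order given, 24.8%, 14.8%, 11.1% and 8.19% of all probes passed. C6, a complement component, fell by 2.93 (limma adjusted p = 1.29e-05), and Cyp4a12a by 6.06 (limma adjusted p = 2.86e-05). Of 13 female-biased genes, 9 rose and none fell on MCD diet without agonist (median 2.32) and 11 rose with agonist (median 4.46). Cyp3a44 rose by 10.12 (limma adjusted p = 1.6e-11) and Cyp2b13 by 7.10 (limma adjusted p = 7.22e-16). All mice were male.

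**Figure D2:**
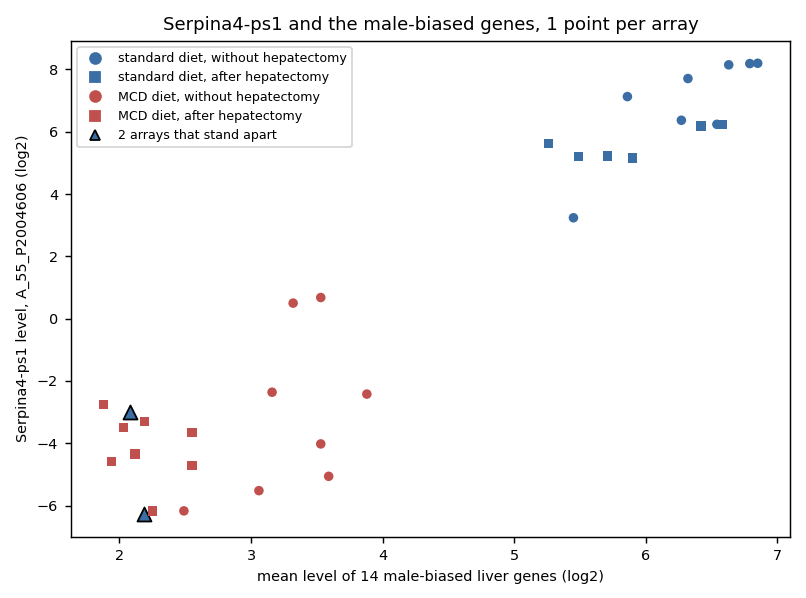
Level of Serpina4-ps1 on each array (log2, vertical axis) against the mean level of the 14 male-biased genes (log2, horizontal axis), by group. The 2 standard diet arrays that stand apart, with male-biased means of 2.08 and 2.19, lie with the MCD arrays.

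Serpina12 encodes vaspin, a serpin named as a visceral fat adipokine that inhibits a tissue kallikrein. Its level was low in all groups, and before surgery it was lower on MCD diet. The standard diet arrays read -1.87, -2.28, -0.91 and -1.71, and the MCD arrays -3.96, -2.81, -5.19 and -3.74. With agonist the standard diet arrays read -1.69, -1.71, -1.57 and -0.37 and the MCD arrays -4.33, -5.02, -6.01 and -3.15, none of the last 4 well above background. The groups overlapped in neither pair. Without agonist the difference was -2.23 (SE 0.82, 95% interval -3.92 to -0.55). It was past the threshold in limma, and no longer so in 13 of 18 other settings. With agonist Serpina12 was at least 7.05-fold lower on MCD diet with the background subtraction used here, a bound because the MCD group lay below background. With another background correction, normexp, the difference was -0.95 (SE 0.38), smaller than that bound and not past the threshold in limma.

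After hepatectomy Serpina12 read -4.95, -0.87, -1.73 and -2.21 on standard diet and -1.92, -2.36, -3.89 and -3.95 on MCD diet. With agonist the values were -2.17, -2.92, -2.03 and -6.56 on standard diet and -4.36, -5.54, -6.61 and -5.32 on MCD diet, the last group again below background on all 4 arrays. The lowest standard diet arrays were the 2 that stand apart. In the means of those groups, -2.44 ± 1.76 became -1.60 ± 0.68 (SD, n = 3) and -3.42 ± 2.13 became -2.37 ± 0.48. Without agonist the diet difference was -0.59 (SE 0.82) with overlapping arrays, and -1.42 (SE 0.62) without the pair that stands apart. Neither was past the threshold in limma. With agonist the level on MCD diet was at least 2.73-fold lower in the means of all arrays, but the groups overlapped. The difference was -2.04 (SE 0.82), not past the threshold in limma. Without the 2 arrays that stand apart it was -3.09 (SE 0.62) and passed. On MCD diet after hepatectomy, Serpina12 was at least 3.59-fold lower with agonist than without, and the arrays did not overlap. That difference was -2.43 (SE 0.82), not past the threshold in limma with all arrays. Without the 2 arrays that stand apart its SE was 0.57 and it passed.

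Serpina12 followed Serpina4-ps1 over the 32 arrays with r of 0.83 and 0.85 for its probes, and within groups with 0.78 and 0.81. The 2 arrays that stand apart were low for both genes, and r without them was not computed. Both genes also lay near background on MCD diet. The r of Serpina12 with the Serpina11 probes was 0.68 and 0.76. Fat-cell markers were low in these livers. Of Adipoq, Fabp4, Plin1, Cfd and Lep, 1 or 2 were well above background on all arrays of a group and 0 to 3 on none. Their summed linear level was 3.33 to 6.98 on standard diet, 2.36 to 4.94 on MCD diet and 2.09 to 5.83 on standard diet with agonist. It was 3.20 to 6.80 on MCD diet with agonist. Whether fat cells in the samples had a part in the Serpina12 values was not tested. The genes most like Serpina12 were Zfp882 (r = 0.878), Vpreb1 (0.859) and Pdia6 (0.836).

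Serpina11 is a liver serpin of little known function. Both probes were lower on MCD diet before surgery. A_55_P2010191 read 5.33, 5.86, 5.55 and 5.52 on standard diet and 4.26, 4.47, 4.59 and 4.70 on MCD diet. The agonist arrays read 6.11, 6.24, 6.09 and 5.80 on standard diet and 5.62, 5.51, 5.12 and 4.94 on MCD diet. The groups did not overlap in either pair, and the differences were -1.06 and -0.76 (SE 0.29). The other probe gave -1.03 and -0.81 (SE 0.30).

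After hepatectomy the Serpina11 arrays on both diets overlapped. A_55_P2010191 read 4.05, 5.18, 5.10 and 5.17 on standard diet and 6.18, 5.71, 5.13 and 4.99 on MCD diet. Under agonist it gave 4.91, 5.15, 4.93 and 4.31 on standard diet and 4.97, 4.23, 3.64 and 4.68 on MCD diet. The differences were 0.63 (95% interval 0.04 to 1.22) and -0.44 (-1.03 to 0.15). The other probe gave 0.31 and -0.35. Without the 2 arrays that stand apart, the values without agonist were 0.35 and -0.05, so the sign there depends on the probe and on 1 array, and with agonist they were -0.61 and -0.51. On MCD diet, the difference after minus before hepatectomy with A_55_P2010191 was 1.00 without agonist and -0.92 with agonist. Both were past the threshold in limma, and no longer so in 9 of 16 other settings. The other probe gave 0.70 and -0.67, neither past it. On standard diet with agonist the hepatectomy difference was -1.24 with A_55_P2010191 and -1.12 with the other. Without the standing-apart array these were -1.07 and -0.96. Between the MCD groups after hepatectomy, the agonist group was lower with A_55_P2010191, by -1.12, and did not overlap. The other probe gave -0.83, and neither value was past the threshold. F7, the clotting factor, was among the genes most like A_55_P2010191 (r = 0.786), with Ang2 (0.788) and Lsm6 (0.785).

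Serpina3k, also called contrapsin or kallikrein-binding protein, is an abundant plasma serpin of the mouse. Its probe was bright in all groups and lower on MCD diet. The standard diet arrays read 11.14, 9.96, 9.84 and 9.90 and the MCD arrays 8.35, 7.85, 8.15 and 8.10. The difference was -2.10 (SE 0.39, 95% interval -2.90 to -1.29), a 4.28-fold lower level, and the groups did not overlap. With agonist the standard diet arrays read 9.88, 9.98, 9.58 and 9.38 and the MCD arrays 9.55, 8.55, 9.52 and 8.21, which overlap. That difference was -0.75 (-1.55 to 0.06). The diet effects without and with agonist differed by 1.35 (SE 0.56). This was past the threshold in limma only without the 2 arrays that stand apart (SE 0.43).

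After hepatectomy Serpina3k read 7.36, 9.60, 9.72 and 9.22 on standard diet and 7.88, 7.94, 8.19 and 8.17 on MCD diet. With agonist it read 9.15, 9.89, 9.54 and 8.66 on standard diet and 8.15, 7.90, 7.38 and 8.43 on MCD diet, with no overlap. The single low standard diet array is replicate 1, which stands apart. The diet difference was -0.93 with it and -1.47 without the pair, and with agonist it was -1.35 and -1.56. The hepatectomy difference on standard diet was -1.23 with it and -0.69 without. The most similar genes were Cyp2c29 (r = 0.925), Fn3k (0.915) and Haao (0.913). Cyp2c29, a drug-metabolising enzyme, fell by 1.43 on MCD diet (SE 0.26, limma adjusted p = 0.000253).

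Serpina3m, a close relative of Serpina3k in the same cluster, did not share its lower level on MCD diet. The r of the 2 genes was 0.31 over the arrays and 0.52 within groups. Serpina3m is described next. It read 7, 7.78, 7.52 and 7.90 on standard diet and 7.51, 7.38, 7.43 and 7.52 on MCD diet. With agonist the values were 7.68, 8.14, 8.54 and 8.02 on standard diet and 8.64, 8.20, 8.68 and 8.34 on MCD diet. The diet differences were -0.09 (95% interval -0.62 to 0.44) and 0.37 (-0.16 to 0.90). The MCD arrays with agonist were all above those without, by 1.01 (SE 0.26), while on standard diet the agonist difference was 0.55 with overlapping arrays. The 1.01 was past the threshold in limma, and no longer so in 4 of 18 other settings, among them normexp (0.28) and median scaling (0.66). The agonist groups after hepatectomy were lower than the agonist groups without it. Serpina3m read 6.13, 7.74, 7.59 and 7.02 on standard diet and 7.42, 7.58, 7.69 and 7.90 on MCD diet. The agonist arrays read 7.18, 7.39, 7.47 and 7.15 and then 7.56, 7.22, 7.08 and 7.45. The hepatectomy differences with agonist were -0.80 on standard diet and -1.14 on MCD diet, without overlap in either. Only the -1.14 was past the threshold in limma, and with normexp it was -0.42 and not past it. The most similar gene was Kng1, a kininogen (r = 0.827). Serpina3 genes are close copies, and the transcripts were not searched for other matches to these probes.

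Serpina3n, a counterpart of human antichymotrypsin that rises in inflammation, had group means that lay close together beside the spread within groups. It read 4.34, 3.54, 3.77 and 4.46 on standard diet, and 4.16, 4.00, 2.64 and 3.66 on MCD diet. Under agonist it gave 6.34, 5.05, 5.10 and 3.27 on standard diet and 4.47, 3.99, 3.41 and 4.63 on MCD diet. No neighbouring group means in its order differed by more than the larger SD. After hepatectomy the arrays read 4.59, 4.44, 3.63 and 4.17 on standard diet and 4.88, 4.38, 5.23 and 4.98 on MCD diet. With agonist they read 3.80, 3.95, 4.07 and 5.42, and 3.43, 4.37, 3.60 and 5.66. The 12 differences ran from -0.82 to 1.26 (SE 0.50), and only the comparison of MCD diet after against before hepatectomy, the 1.26, had arrays without overlap.

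Other acute phase genes were set beside it. Of 20 tested, 5 rose and none fell with agonist on standard diet, where Serpina3n differed by 0.91 (95% interval -0.11 to 1.93). In that comparison 5.84% of all probes passed. Saa2 rose by 3.88 (limma adjusted p = 0.00503) and Apcs, serum amyloid P, by 2.5 (limma adjusted p = 0.00134). After against before hepatectomy, 6 of 20 rose on standard diet (12.9% of all probes passed) and 8 of 20 on MCD diet (8.49%), and none fell. With agonist, 1 fell and none rose in each of these comparisons, beside 6.89% of all probes on standard diet and 9.74% on MCD diet. Macrophage markers were also measured. Over 8 genes their summed linear level was 42.5 to 73.8 on standard diet, 109 to 284 on MCD diet, 119 to 192 on standard diet with agonist and 55.3 to 105 on MCD diet with agonist. After hepatectomy, in the same order, it was 93.4 to 482, 188 to 397, 157 to 473 and 107 to 255. All 8 were well above background in all groups. On MCD diet after against before hepatectomy, where Serpina3n did not overlap, 1 of the 8 rose (median 0.03). The summed level of 5 neutrophil markers was 3.96 to 7.28 on standard diet, 5.17 to 22.8 on MCD diet, 5.78 to 27.2 on standard diet with agonist and 9.70 to 22.6 on MCD diet with agonist. After hepatectomy it was 10.6 to 33.3, 53.9 to 173, 11.8 to 61.2 and 11.2 to 68.9 in the same order. The part of these cells in the Serpina3n values was not tested.

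Serpina6 is corticosteroid-binding globulin, the carrier of glucocorticoids in plasma, a serpin that no longer inhibits proteases. Its level was lower after hepatectomy on MCD diet, and on standard diet with 1 of its probes. A_55_P2178036 read 5.62, 4.64, 4.74 and 4.54 on standard diet before and 1.31, 3.72, 3.87 and 3.64 after surgery. On MCD diet it read 5.95, 5.31, 5.72 and 5.24 before and 3.55, 3.28, 3.06 and 3.08 after. The groups did not overlap in either. On MCD diet the difference was -2.31 (SE 0.59, 95% interval -3.51 to -1.11), a 4.96-fold lower level, and with A_51_P133562 it was -2.21 (SE 0.58). On standard diet it was -1.75, and -1.14 without the standing-apart array, while A_51_P133562 gave -0.89 (-2.09 to 0.30) and -0.37. The standard diet difference of A_55_P2178036 was past the threshold in limma with all arrays, and no longer so in 11 of 16 other settings, among them median scaling and quantile normalization.

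In the agonist groups the arrays of Serpina6 before and after hepatectomy overlapped. A_55_P2178036 read 3.87, 4.47, 5.16 and 3.82 on standard diet before surgery and 4.68, 4.46, 4.64 and 0.88 after. On MCD diet it read 5.40, 4.59, 5.35 and 5.64 before and 4.55, 4.47, 4.72 and 3.39 after. The differences were -0.66 and -0.97, with intervals of -1.87 to 0.54 and -2.17 to 0.24. With A_51_P133562 they were -0.89 and -1.23. Without the 2 arrays that stand apart, the values on MCD diet stayed at -0.97 (SE 0.31) and -1.23 (SE 0.36). Both were then past the threshold in limma, and neither was with all arrays. On standard diet with agonist the direction rests on 1 array: without it the differences were 0.26 with A_55_P2178036 and 0.00 with A_51_P133562. The low value of 0.88 is the array that stands apart, and A_51_P133562 read 2.81 on it against 6.12, 6.58 and 6.30 on the others of its group. The diet differences before surgery were 0.67 and 0.92 with A_55_P2178036 and 1.08 and 0.67 with A_51_P133562, with intervals that include 0 in the fit of all arrays. Without the 2 arrays that stand apart, the 0.92 (SE 0.31) and the 1.08 (SE 0.36) passed the threshold in limma. The values of 0.67 did not. The slide, and the longer time on MCD diet or agonist, cannot be told apart from hepatectomy here. Akr1c20 was the most similar gene for both probes (r = 0.799 and 0.815).

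**Figure D3:**
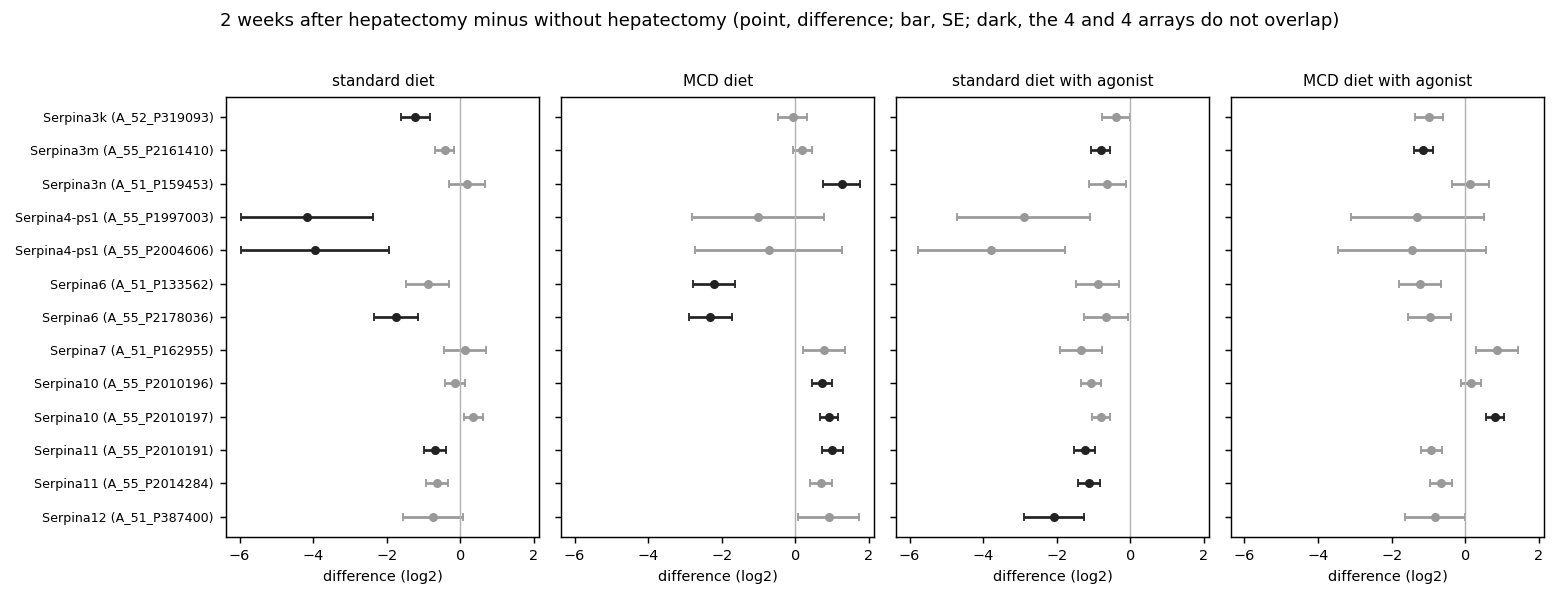
Difference of each Serpina probe after minus before hepatectomy (log2, with SE) in the 4 conditions of diet and agonist. Serpina6 on MCD diet differed by -2.21 and -2.31, and Serpina10 had opposite signs on MCD diet and standard diet with agonist.

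Serpina7 is thyroxine-binding globulin, the carrier of thyroid hormone, and lies on the X chromosome. It read 2.74, 2.03, 1.28 and 1.35 on standard diet and 2.99, 2.38, 2.33 and 2.62 on MCD diet. With agonist it read 4.03, 3.96, 2.37 and 3.19 on standard diet and 2.22, 2.65, 0.40 and 2.49 on MCD diet. The arrays overlapped in each pair. The agonist difference was 1.54 on standard diet (SE 0.57, 95% interval 0.38 to 2.70) and -0.64 on MCD diet (-1.80 to 0.52). The difference between these was -2.18 (SE 0.80), past the threshold in limma only without the 2 arrays that stand apart (SE 0.69). After hepatectomy Serpina7 read 0.97, 2.37, 1.53 and 3.03 on standard diet and 4.14, 3.89, 3.07 and 2.40 on MCD diet. With agonist the values were 3.00, 2.20, 2.73 and 0.20 on standard diet and 1.86, 3.70, 2.87 and 2.76 on MCD diet. Its group means ran from 1.85 ± 0.68 on standard diet to 3.39 ± 0.78 on standard diet with agonist, and no neighbours in that order differed by more than the larger SD. St6gal1, a sialyltransferase, was its most similar gene (r = 0.734).

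For the hormones these proteins carry, 16 genes of glucocorticoid and thyroid response were tested. On MCD diet 3 rose and 3 fell without agonist (median -0.60, all probes -0.16), and 2 rose and 3 fell with agonist. The shares of all probes that passed were 24.8% and 14.8%. Fkbp5, a glucocorticoid-induced chaperone of the receptor, rose by 1.90 (limma adjusted p = 0.00123) and by 2.48 after hepatectomy (limma adjusted p = 0.0002). Per1, a clock gene that glucocorticoids induce, rose by 3.1 on MCD diet after hepatectomy (limma adjusted p = 0.000379). Slco1c1, a thyroxine transporter, fell by 1.48 on MCD diet without agonist (limma adjusted p = 0.00056). Dio1, which activates thyroxine, fell by 2.55 on MCD diet with agonist (limma adjusted p = 0.00713).

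Serpina10 is the protein Z-dependent protease inhibitor, which with protein Z (Proz) blocks clotting factor Xa. With A_55_P2010197, it read 7.31, 6.90, 6.86 and 6.78 on standard diet and 7.14, 7.11, 7.59 and 7.32 on MCD diet. The agonist arrays read 8.25, 7.60, 8.88 and 7.17 on standard diet and 6.65, 6.67, 6.54 and 6.54 on MCD diet. The MCD arrays with agonist lay below every array of the other 3 groups, while the standard diet arrays with agonist included the highest values. The diet difference was 0.33 (95% interval -0.18 to 0.83) without agonist and -1.38 (SE 0.25) with it, and the difference between these was -1.70 (-2.41 to -0.99). A_55_P2010196 gave -0.04, -0.87 and a difference between them of -0.83 (-1.62 to -0.03).

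After hepatectomy A_55_P2010197 read 7.51, 7.29, 7.02 and 7.41 on standard diet and 8.39, 8.04, 8.08 and 8.34 on MCD diet. Under agonist it gave 6.87, 7.48, 7.04 and 7.33 on standard diet and 7.23, 7.66, 7.40 and 7.32 on MCD diet. Only the MCD group without agonist stood above the rest, and the diet difference there was 0.90, and 0.83 with A_55_P2010196. Against the time before surgery, MCD diet was higher with A_55_P2010197 by 0.92 without agonist and 0.80 with agonist. The 0.80 was past the threshold in limma with all arrays, and no longer so in 8 of 16 other settings. A_55_P2010196 gave 0.73 and 0.16, neither past the threshold. On standard diet with agonist the difference with A_55_P2010197 was -0.80, and -0.85 without the standing-apart array. The 2 Serpina10 probes correlated at 0.64 over the arrays and at 0.36 within groups, less than the 0.89 of the Serpina6 pair, 0.92 of Serpina11 and 0.99 of Serpina4-ps1. Kctd15 was most like A_55_P2010197 (r = 0.744) and Slc37a1 most like A_55_P2010196 (r = 0.711).

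Of 18 tested proteases and partners of serpins, 6 fell and none rose on MCD diet without agonist (median -0.44, all probes -0.16), and 5 fell and none rose with agonist (median -0.26, all probes 0.03). Of all probes, 24.8% passed without agonist and 14.8% with agonist, and nothing is read from the counts. Proz, the cofactor of Serpina10, fell by 1.09 without agonist (limma adjusted p = 0.00482) and by 1.00 with agonist (limma adjusted p = 0.0135). F7 fell by 1.42 (limma adjusted p = 0.000196) and Klkb1, plasma kallikrein, by 1.49 (limma adjusted p = 0.000393). With agonist on standard diet, 3 rose and none fell, beside 5.84% of all probes that passed. Prtn3, a neutrophil protease, rose by 4.18 (limma adjusted p = 0.000884), and F9, a clotting factor, by 1.30 (limma adjusted p = 0.00145).

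**Figure D4:**
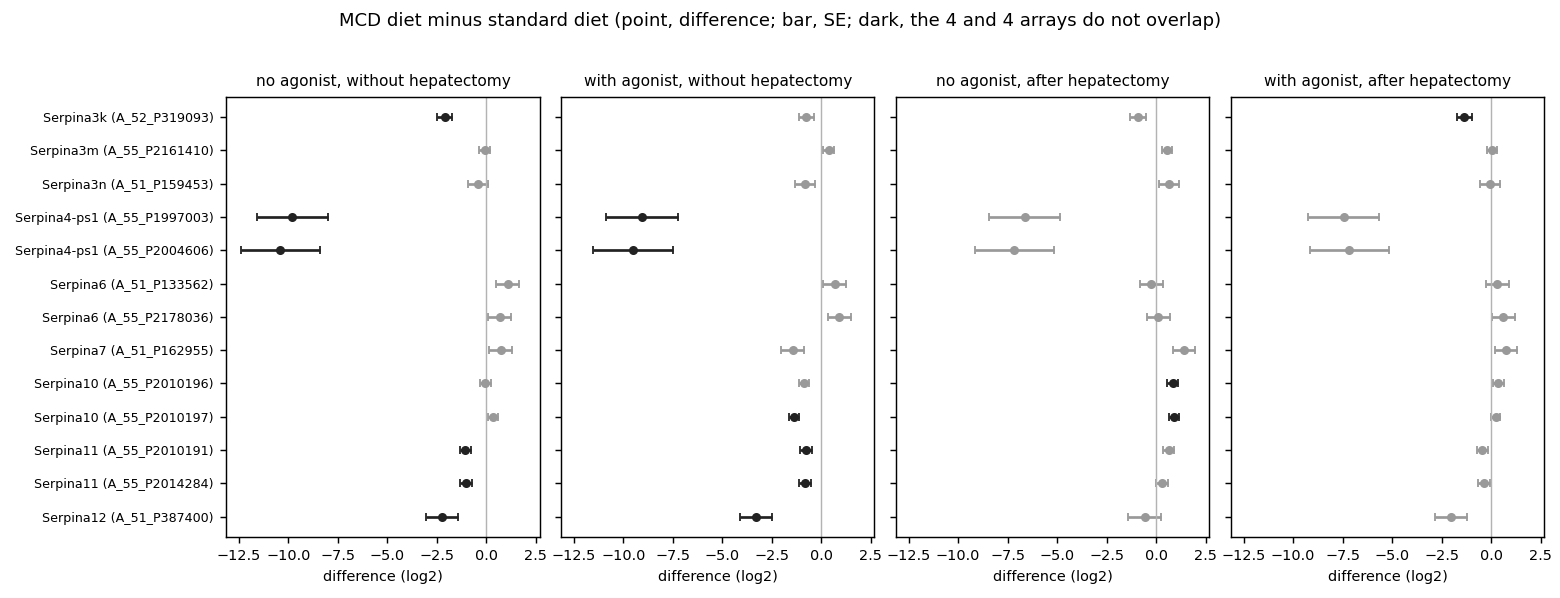
Difference of each Serpina probe on MCD minus standard diet (log2, with SE), in the 4 settings of agonist and hepatectomy. The Serpina4-ps1 probes lie between -10.40 and -6.65, and Serpina3k is at -2.10 without agonist and hepatectomy. The Serpina12 points with agonist stand against groups below background.

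Counts over the 13 probes were set beside the share of all 30137 tested probes with an adjusted p under 0.05. Because the members were chosen from these contrasts, nothing is read from the counts. On MCD against standard diet, 6 member probes passed without agonist, all lower, against 24.8% of all probes, and 5 with agonist, all lower, against 14.8%. After hepatectomy 4 passed without agonist, 2 in each direction, against 11.1%, and 3 with agonist, all lower, against 8.19%. For agonist, 1 passed on standard diet, higher, against 5.84%, and 1 on MCD diet, higher, against 12%. After hepatectomy none passed on standard diet, against 0.00332%, or on MCD diet, against 0.328%. In the former, 820 of all probes had an unadjusted p under 0.05, and in the latter 4197.

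For hepatectomy, 2 passed on standard diet, both lower, against 12.9%, and 4 on MCD diet, 2 in each direction, against 8.49%. With agonist 4 passed on standard diet, all lower, against 6.89%, and 3 on MCD diet, 1 higher and 2 lower, against 9.74%. Over the 12 comparisons and both differences between diet effects, 34 of 182 member differences passed. Comparisons that share a group are not independent of each other. The member median was -0.42 for diet without agonist against -0.16 over all probes, and -0.82 against 0.03 with agonist. Another scaling moves the floor under these values: with median scaling the median of all probes moved by 0.37 for diet without agonist and by -0.34 for agonist on MCD diet. The 34 differences kept their direction under that scaling.

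The array also carries 15 other Serpina genes with 21 probes, of which 18 probes of 13 genes were tested. On MCD diet 9 of the 18 fell and none rose without agonist, beside the 24.8% of all probes, and 8 fell and none rose with agonist, beside 14.8%. Serpina3h fell by 3.51 without agonist (SE 0.50, limma adjusted p = 1.89e-05), with standard diet arrays from 3.43 to 3.59 and MCD arrays from -0.09 to 0.21. With agonist it fell by 2.38 (limma adjusted p = 0.00175). Serpina9 fell by 3.42 (SE 0.91, limma adjusted p = 0.00712) and with agonist by 3.37 (limma adjusted p = 0.0119), the latter not past the threshold without replicate 3 of standard diet with agonist. It was well above background on 1 of the 4 MCD arrays with agonist. Serpina1f fell by 1.36 (limma adjusted p = 0.00236) and by 1.22 with agonist (limma adjusted p = 0.00822). Serpina3b fell by 1.09 without agonist (limma adjusted p = 0.00333).

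A second set fell on MCD diet with agonist, where without agonist the values lay nearer 0. Serpina3g fell by 2.56 (SE 0.42, limma adjusted p = 0.000129) and differed by 0.27 without agonist. The difference between these effects also passed (limma adjusted p = 0.00386). The Serpina3f probes fell by 2.81 (limma adjusted p = 0.000148) and 2.97 (limma adjusted p = 0.000453), and Serpina3i by 2.64 (limma adjusted p = 0.00149). Their differences between diet effects passed for A_55_P2142226 and A_55_P2104975 of Serpina3f and A_55_P1966774 of Serpina3i.

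Serpina1e fell by 1.23 without agonist with A_55_P2010292 (limma adjusted p = 0.000854) and differed by -0.52 with A_55_P2113857. Serpina1 genes are near-identical copies of the gene for alpha-1-antitrypsin, so their probes may not tell them apart. In the authors' deposited table with columns placed at the matching arrays, the first of these was 0.02, and the directions of a probe each of Serpina1a and Serpina1d turned as well.

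**Figure D5:**
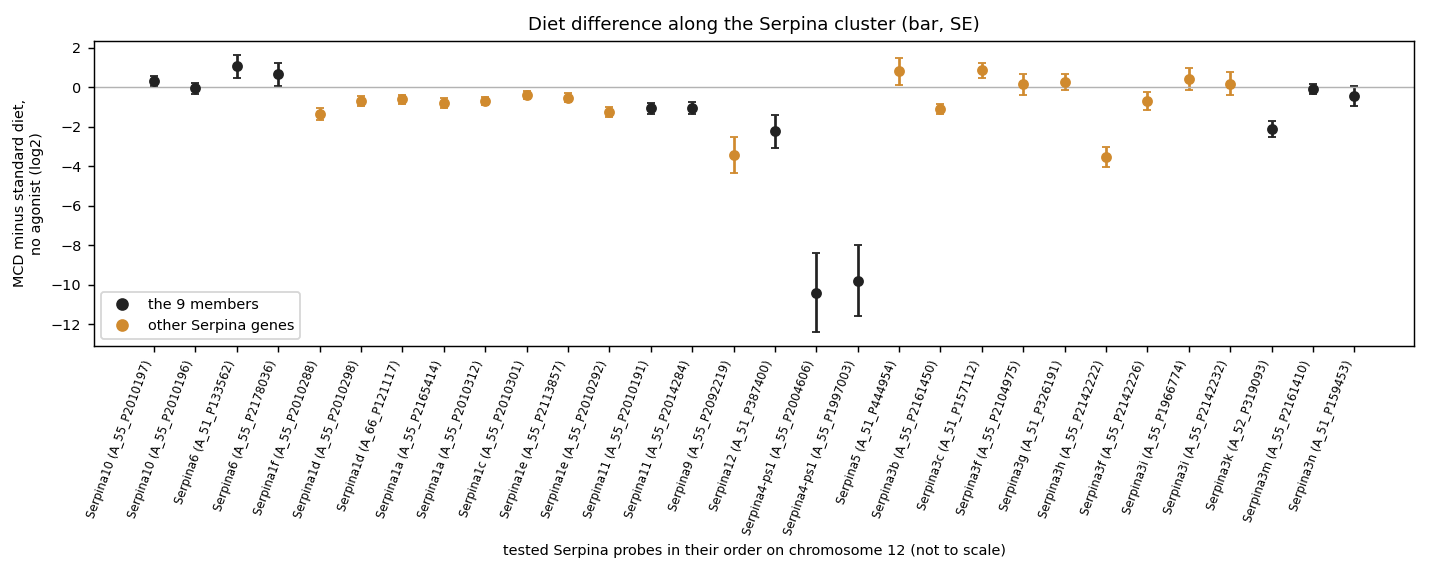
Diet difference without agonist (MCD minus standard, log2, with SE) of the tested Serpina probes on chromosome 12, in the order of their positions along the cluster (horizontal axis). Serpina4-ps1, at -9.80 and -10.40, stands below neighbours on both sides, and Serpina12 is at -2.23 and Serpina11 at -1.06 and -1.03.

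In the RefSeq table of GRCm38.p6, used for neighbour order only, the cluster interval holds 41 genes, of which 28 are named Serpina. Along the cluster 8 of the 9 members lie on chromosome 12. The lower values on MCD diet were not shared by all neighbours: Serpina6, near one end, differed by 1.08 and 0.67, and Serpina3m, beside Serpina3k, by -0.09.

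Serpins outside the A clade were mixed. Of 12 tested, 4 fell and 1 rose on MCD diet without agonist (median -0.22, all probes -0.16), and 2 fell with agonist. The shares of all probes that passed were 24.8% and 14.8%. Serpine2, protease nexin, fell by 2.41 (limma adjusted p = 4.3e-05) and Serping1, the C1 inhibitor, by 1.25 (limma adjusted p = 0.000773).

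Among 21 liver transcription factors and genes of growth hormone signalling, 7 fell and 2 rose on MCD diet both without agonist (median -0.46, all probes -0.16) and with agonist (median -0.69, all probes 0.03). The shares of all probes that passed were 24.8% and 14.8%. Stat5b, which carries the growth hormone signal to the nucleus, fell by 0.91 (limma adjusted p = 0.00293), and Igfals, a partner of circulating IGF, by 1.44 (limma adjusted p = 0.0039). Bcl6, a repressor, fell by 2.05 without agonist (limma adjusted p = 0.00493) and by 2.80 with agonist (limma adjusted p = 0.000499). Cux2, a repressor found mostly in female liver, rose by 4.46 with agonist (limma adjusted p = 0.000445).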

How the data were processed

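RNA of 32 livers was labelled with Cy3 and hybridised to 1-colour Agilent arrays, per the labels' protocols. The deposited scanner files (Feature Extraction 10.7.3.1, per the file headers) give intensity per spot, with the background already subtracted in the processed signal. The deposited table of the authors' processed values is on a log2 scale, judged from its values. The submitters' processing notes name limma. The medians of its columns are equal within each set, at 6.48 without and 6.95 to 6.96 after hepatectomy, its centring is unknown, and it was used only within a set.

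From 62976 spots, 3671 controls and the spots flagged as outliers (0.264%) were left out and spots of a probe averaged, giving 55681 probes. Values are log2 processed signal minus the array's 75th percentile. Of these, 30137 probes, each well above background on every array of some group, were fitted over 8 groups with limma 3.58.1 (R 4.3.3), with Benjamini-Hochberg adjustment and a threshold of 0.05. A bound ("at least") sets the brighter group's mean against, per array, the higher of the probe's own value and the lowest well-above-background value. It holds for the main background subtraction and does not take the spread over arrays into account. The fit was tested on simulated data. Replicate numbers do not pair the arrays: deviations of same-numbered arrays correlated from -0.193 to 0.416.

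The members and gene lists were chosen with earlier results of these data known. Named are all members, up to 8 other Serpina genes and up to 4 genes per list and comparison by smallest adjusted p, and the 3 genes most correlated with each member. Every list was used for counts only. Alternatives were another background correction, scaling, filter, outlier rule, sample set, a replicate block, single arrays left out and, chosen after seeing the data, the 2 standing-apart arrays left out and the table's columns placed at matching arrays. Probe names and mm9 positions are those of the files.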

Additional observations from a re-analysis of the deposited data

Results flagged for a closer look

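In groups of 4, an array was picked out when its gap to the nearest other was a share of the group's range above Dixon's 95% critical value. Chance picks about 1 in 20 groups, and 13 of 104 were picked. Of these, 10 belong to the 2 arrays that stand apart. Replicate 1 of standard diet after hepatectomy was low for Serpina4-ps1 (-3.59 and -3.01), Serpina6 (3.68 and 1.31) and Serpina11 (4.05 with A_55_P2010191), with gaps of 0.902, 0.882, 0.859, 0.911 and 0.932. Replicate 4 of standard diet with agonist after hepatectomy was low for Serpina4-ps1 (-5.14 and -6.27) and Serpina6 (2.81 and 0.88), with gaps of 0.945, 0.965, 0.878 and 0.942. On the same array Serpina3n was high at 5.42 (gap 0.831).

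Single high arrays were replicate 1 of standard diet for Serpina3k, at 11.14 (gap 0.911), and replicate 4 of standard diet with agonist for Serpina12, at -0.37 (gap 0.9). A single low array was replicate 1 of MCD diet with agonist after hepatectomy for Serpina10 with A_55_P2010196, at 3.52 (gap 0.852).

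The diet effect on Serpina10 differed with agonist, without hepatectomy, by -1.70 with A_55_P2010197 and by -0.83 with A_55_P2010196. The same difference between diet effects after hepatectomy was -0.68 (95% interval -1.39 to 0.03) with A_55_P2010197.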

How the results depend on the processing

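Counts are probes past an adjusted p of 0.05 in limma fits, of 30137 tested in the main setting. Member calls were 34, and all kept their direction except under the column labels of the authors' table. The calls kept were 24 with normexp background correction, 23 with median scaling, 27 with quantile normalization, 26 with no filter, 34 with outlier spots kept, 22 with only the groups compared, 31 without the 2 arrays that stand apart, and 196 of 280 refits with 1 array left out. Member calls that ended in over 10 settings were Serpina10 (A_55_P2010196) for diet without agonist after hepatectomy (14 of 18), Serpina12 for diet without agonist (13 of 18), Serpina10 (A_55_P2010197) for hepatectomy on standard diet with agonist (13 of 16) and Serpina6 (A_55_P2178036) for hepatectomy on standard diet (11 of 16). Of 42 differences of other Serpina probes, 12 fell below the threshold with median scaling, 14 with quantile normalization, and 86 of 384 refits with 1 array left out.

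With the replicate number as a block, 12 of 14 counts stayed within 1.5 times, agonist after hepatectomy on standard diet gave 2 probes against 1, while the difference of diet effects after hepatectomy gave 0 against 1. The block kept 31 of the 34 member calls. As the numbers do not pair the arrays, nothing is read from it.

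Under the authors' table with columns as labelled, directions turned for Serpina10 after hepatectomy (-0.03 and -0.34), Serpina11 (0.56 and 0.71) and Serpina12 (0.28) for diet without agonist, and Serpina3k (0.06) for diet with agonist after hepatectomy. They turned too for Serpina1a (0.38, and -0.09 for agonist on MCD diet), Serpina1d (0.01), Serpina1f (0.14, with agonist 0.33), Serpina3b (0.07), Serpina9 (0.02), Serpina3h with agonist (0.03) and Serpina3f for agonist on standard diet (-0.05). Its counts were 1613 for diet without agonist against 7473, 1 after hepatectomy against 3336 and 56 with agonist after hepatectomy against 2469. For agonist they were 5410 on standard diet against 1760, 2103 on MCD diet against 3628, and after hepatectomy 3990 against 1 and 2748 against 99. The differences of diet effects gave 1695 against 3011, and 0 after hepatectomy. With columns placed at the matching array, Serpina1a (0.45), Serpina1d (0.33) and Serpina1e (0.02) turned for diet, and counts were 2103 for diet with agonist against 4466, 56 for agonist on MCD diet after hepatectomy, 1695 for the difference of diet effects and 0 after hepatectomy. The cause was not tested.

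With normexp, Serpina3f after against before hepatectomy on MCD diet with agonist turned (-0.06). The counts were 11916 for diet without agonist and 2405 with it, 9589 for agonist on MCD diet, 0 and 206 for agonist on standard and MCD diet after hepatectomy, and 7233, 1506, 6759 and 12326 for hepatectomy on standard diet, MCD diet, standard diet with agonist and MCD diet with agonist. The differences of diet effects gave 5309 and 0. With no filter, which tests more probes, counts were 824 and 8507 for agonist on standard and MCD diet, 14 on MCD diet after hepatectomy, 2075 and 1591 for diet after hepatectomy without and with agonist, 9186 for hepatectomy on MCD diet with agonist and 0 for the last difference. With only the groups compared, on fewer arrays, they were 1629 for diet with agonist, 2051 for diet after hepatectomy, 280 and 2304 for agonist on standard and MCD diet, 3 and 42 after hepatectomy, 1305 for hepatectomy on standard diet, 1273 on MCD diet with agonist and 1936 for the difference of diet effects. Median scaling gave 2 for agonist after hepatectomy on standard diet, and 0 for the last difference, and quantile normalization 0 for the latter. Without the 2 arrays, agonist after hepatectomy gave 2 and 288, hepatectomy 2140 on standard diet and 1218 with agonist, and the last difference 6.

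Leaving out 1 array at a time, diet gave 5920 to 7062 without and 3490 to 4479 with agonist, and after hepatectomy 2007 to 3931 and 1440 to 2690. Agonist gave 639 to 1844 on standard and 1898 to 3879 on MCD diet, and after hepatectomy 1 to 3 and 14 to 441. Hepatectomy gave 1997 to 3887 on standard diet, 1693 to 2105 on MCD diet, 1049 to 1991 on standard diet with agonist and 1628 to 2904 on MCD diet with agonist. The differences of diet effects gave 2203 to 3368, and 0 to 3 after hepatectomy. Serpina4-ps1 on MCD diet and Serpina12 lie near background, which limits how far their low values can be ordered.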
